A study of Mus musculus with 2 samples.

Results

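The 3 paralogous clusters described here hold 9 of the 2202 miRNA genes in the deposited tables. Each cluster joins a gene of the Mir99/100 family, a let-7 gene and a Mir125 gene. The clusters are Mir99a, Mirlet7c-1 and Mir125b-2 (the Mir99a cluster), Mir100, Mirlet7a-2 and Mir125b-1 (the Mir100 cluster), and Mir99b, Mirlet7e and Mir125a (the Mir99b cluster). The rule for membership is the gene name and uses no measured value, and each of the 9 genes was found once in the tables through its Ensembl identifier in GENCODE release M21. The samples are 2 small RNA libraries of the gastrocnemius, the main calf muscle, from male mice of strain B6CASTF1/J at 10 days of age. This strain is the first-generation cross of C57BL/6J with CAST/EiJ, and the labels name no treatment. The labels number the animals separately but give both the same donor entry. The series holds 1 group, so every difference below is between genes or between the 2 libraries, and none is between conditions.

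MicroRNAs are cut from a hairpin precursor, and the mature strand guides Argonaute proteins to messenger RNAs. Pairing of the seed, bases 2 to 8 of the mature strand, largely sets which transcripts are bound. The 3 families have different seeds, so each cluster combines 3 targeting specificities in a shared transcription unit. The let-7 family is known for its rise as tissues mature and for repressing growth regulators such as Hmga2 and Lin28. Members of the Mir99/100 family are known to repress Mtor and Igf1r, and Mir125b has been studied as a brake on the differentiation of muscle cells in culture through Igf2. The clusters are thought to be copies of an ancient cluster that is also found in flies.

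The mature sequences show what the 3 genes of a family share and where they part. RefSeq (GRCm38.p6) held entries for 9 of 9 members by symbol, with the 5p arm, cut from the 5′ side of the hairpin, for 8 of them. The 5p arm of Mirlet7a-2 was not among them. In the sequences that follow, written 5′ to 3′, capitals mark the seed. The Mir99/100 arms are shown because a single base separates Mir99a from Mir100.
Mir99a: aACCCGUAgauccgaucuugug
Mir100: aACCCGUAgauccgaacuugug
Mir99b: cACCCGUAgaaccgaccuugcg
All 3 have the seed ACCCGUA, and no other mature arm of the RefSeq table has it. Positions are counted from 1 at the 5′ end, and the first-named gene's base is written first. Mir99a and Mir100 differ by U16A. Mir99a and Mir99b differ at 4 positions, A1C, U11A, U16C and U21C, none of them in the seed.

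The let-7 and Mir125 arms are shown because some of them are letter for letter the same in more than 1 gene. The first 2 lines are let-7 arms and the last 3 are Mir125 arms.
Mirlet7c-1: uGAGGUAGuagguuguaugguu
Mirlet7e: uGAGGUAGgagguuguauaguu
Mir125b-1: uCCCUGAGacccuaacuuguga
Mir125b-2: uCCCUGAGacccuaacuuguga
Mir125a: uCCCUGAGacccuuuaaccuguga
Mirlet7c-1 and Mirlet7e differ by U9G and G19A. The Mirlet7c-1 arm is identical to that of Mirlet7c-2, a let-7 gene on chromosome 15 outside the clusters. The arms of Mir125b-1 and Mir125b-2 are identical over all 22 bases, although the genes belong to different clusters. Mir125a, with 24 bases, shares the first 13 with them.

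The copies limit what the counts can show. A read that matches several genomic places was counted for no gene, and such reads made up 47.0% of replicate 1 and 48.0% of replicate 2. The hairpins were therefore compared with those of all 2202 miRNA genes of the annotation. Of the 9 members, 4 shared a stretch of at least 20 nt with another gene, and the other 5 shared at most 17 nt. The stretch was 24 nt between Mir125b-1 and Mir125b-2, 23 nt between Mirlet7c-1 and Mirlet7c-2, and 23 nt between Mirlet7a-2 and Mirlet7a-1. In the following RefSeq hairpins the capitals mark that stretch, which covers the whole listed 5p arm of Mirlet7c-1 and Mir125b-1.
Mirlet7c-1: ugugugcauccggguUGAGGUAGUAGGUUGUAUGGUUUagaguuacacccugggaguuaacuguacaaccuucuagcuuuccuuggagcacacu
Mirlet7a-2: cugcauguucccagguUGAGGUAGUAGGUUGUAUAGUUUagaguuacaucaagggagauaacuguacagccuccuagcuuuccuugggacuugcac
Mir125b-1: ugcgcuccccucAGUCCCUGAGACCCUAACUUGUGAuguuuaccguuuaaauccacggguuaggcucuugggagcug
The 3p arms, from the other side of the hairpin, were different in every member, and 0 of 9 occurred in another annotated hairpin. Counts are per hairpin gene, so 5p and 3p reads are not given apart. A read lying wholly within such a stretch matches more than 1 gene, so by this rule it was counted for none. The counts of the 4 members are thus of other reads, such as reads of the 3p arm or reads reaching past the stretch. Which of these they were was not tested, and their levels are not of like kind with those of the other 5.

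All 9 members were detected, here meaning at least 10 counts in both libraries, as were 313 of the 2202 genes. Levels are sense counts scaled to an assigned total of 1e+06 per library (CPM), and ± gives the SD of the 2 libraries. A small RNA read covers a whole mature strand, so CPM were not divided by length. A count is a read, and the tables hold no molecular identifiers to tell molecules from their copies. Whether different miRNAs were read with equal efficiency was not tested. The order of the 9 levels was the same per 100 nt of hairpin.

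The 9 genes together took 3.50% of the assigned counts in replicate 1 (139846 counts) and 3.28% in replicate 2 (166206 counts). The Mir99a cluster took the most, at 2.05% of replicate 1 (95% exact interval 2.04 to 2.06) and 1.94% of replicate 2 (1.92 to 1.95). The Mir99b cluster followed with 0.842% (0.833 to 0.851) and 0.762% (0.755 to 0.770). The Mir100 cluster took 0.604% (0.596 to 0.612) and 0.584% (0.578 to 0.591). The 3 clusters kept this order in both libraries, without overlap. The order of the Mir99b and Mir100 clusters rests on counting by strand, as given with Mirlet7e. It also leaves out reads with several genomic matches. In the Mir100 cluster, Mirlet7a-2 shares 23 nt and Mir125b-1 24 nt with another gene, so their reads can go uncounted. In the Mir99b cluster the longest shared stretch is 17 nt, that of Mirlet7e. Whether the order of the clusters would hold with the uncounted reads was not tested.

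**Figure D1:**
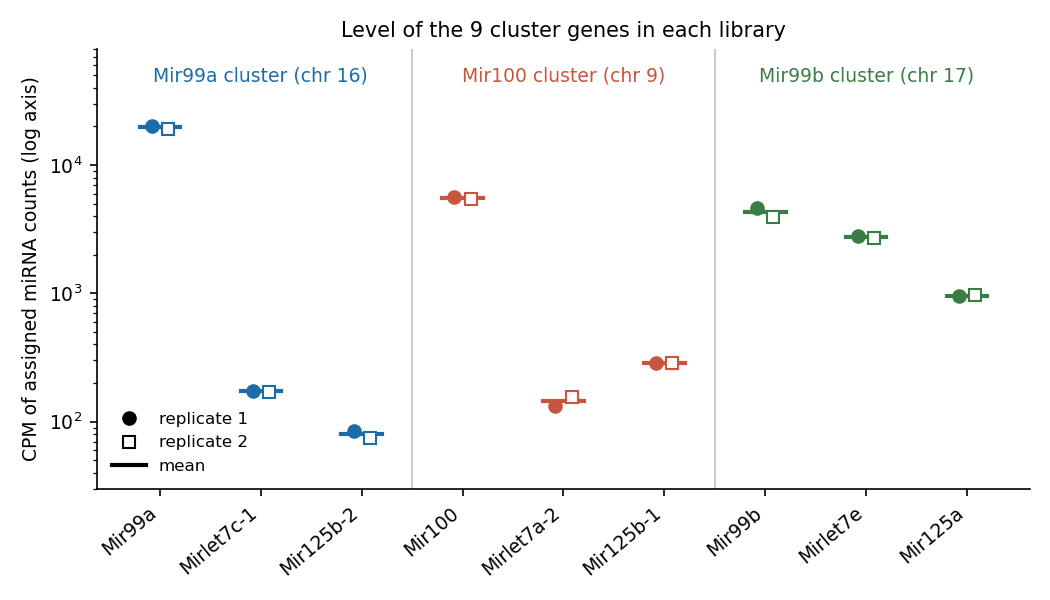
CPM (log axis) of the 9 genes, grouped by cluster, with replicate 1 as filled circles, replicate 2 as open squares and the mean as a bar. The Mir99/100 gene is the highest of each cluster, and the 3 genes of the Mir99b cluster lie between 950 and 4665 CPM.

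The Mir99/100 genes led every cluster. Mir99a (chromosome 16, 77598936 to 77599000 in mm10, plus strand) had 80975 counts in replicate 1 and 96792 in replicate 2, which are 20248 and 19119 CPM. It ranked 14th among all genes in both libraries, at 19683 ± 799 CPM. Its level was next to that of Mirlet7d above (20699 ± 174 CPM) and of Mir322 below (16247 ± 2574 CPM), and the values of the libraries did not overlap with either.

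Mir100 (chromosome 9, 41531425 to 41531504, plus strand) had 22472 and 27348 counts, or 5619 and 5402 CPM. It ranked 28th in both libraries, at 5511 ± 154 CPM. Mir99a was 3.57 ± 0.05 times as high as this gene, from which its 5p arm differs by 1 base. The 2 hairpins have no longer stretch than 16 nt in common. How reads with a mismatch were placed is not given in the sources used here.

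Mir99b (chromosome 17, 17830188 to 17830257, plus strand) shares no stretch of 14 nt or more with another miRNA gene. It had 18656 and 20008 counts, or 4665 and 3952 CPM, which was lower in replicate 2. At 4308 ± 504 CPM its SD was 11.7% of the mean, against 4.06% for Mir99a and 2.79% for Mir100. Mir100 stood 1.29 ± 0.11 times above it, with no overlap between the values of the genes. Mir99b overlapped in level with Mir191 above (4477 ± 106 CPM) and Mir151 below (4082 ± 168 CPM).

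Among the let-7 members, Mirlet7e was far above the other 2. Mirlet7e (chromosome 17, 17830352 to 17830444, plus strand) had 11228 and 13680 counts, or 2808 and 2702 CPM. At 2755 ± 75 CPM it was next to Mir483 (2853 ± 121 CPM) above and Mir451a (2736 ± 1647 CPM) below, and overlapped with both. Its 5p arm occurs in no other annotated hairpin, though it is 1 base away from that of Mirlet7a-1 (G9U).

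The level of Mirlet7e depends on counting by strand. On the opposite strand the annotation has another miRNA gene, Gm25927 (17830343 to 17830459), which covers the whole Mirlet7e hairpin. In the column that ignores strand, Mirlet7e has 0 counts in both libraries. In the column for the strand opposite to each gene, Gm25927 has exactly the 11228 and 13680 reads of Mirlet7e, and its own sense count is 0 in both. Without regard to strand, the Mir99b cluster would take 0.643% of the assigned counts and stand below the Mir100 cluster at 0.725%. The other 8 members had the same counts in both columns and 0 reads on the opposite strand.

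Mirlet7c-1 and Mirlet7a-2 were counted at low levels. Mirlet7c-1 (chromosome 16, 77599657 to 77599750) had 694 and 864 counts, or 174 and 171 CPM, and a mean of 172 ± 2 CPM. Mirlet7a-2 (chromosome 9, 41536716 to 41536811) had 534 and 795 counts, or 134 and 157 CPM, higher in replicate 2, and a mean of 145 ± 17 CPM. Their values did not overlap. Mirlet7e was 16.0 ± 0.2 times as high as Mirlet7c-1 and 19.1 ± 2.7 times as high as Mirlet7a-2. Both lower genes hold a 23 nt stretch that is present in a further gene, and Mirlet7e does not. How many reads they lost by this was not tested.

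Mir125a was the highest of the Mir125 members. Mir125a (chromosome 17, 17830812 to 17830879), whose 5p arm is in no other hairpin, had 3801 and 4895 counts, or 950 and 967 CPM. Its mean was 959 ± 12 CPM, and its neighbours in level were Mir539 (995 ± 66 CPM) and Mir376a (942 ± 15 CPM), both overlapping with it. Mir125b-1 (chromosome 9, 41581926 to 41582002) had 1147 and 1448 counts, or 287 and 286 CPM. Mir125b-2 (chromosome 16, 77646273 to 77646343) had 339 and 376 counts, or 84.8 and 74.3 CPM, and was the lowest member at 79.5 ± 7.4 CPM. Mir125b-1 was 3.62 ± 0.33 times as high as Mir125b-2. Reads of their identical 5p arms match both genes, while reads of their 3p arms do not, as the 3p sequences show.
Mir125b-1: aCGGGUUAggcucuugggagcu
Mir125b-2: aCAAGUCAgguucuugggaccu
Bases 2 to 8 are in capitals, and these seeds differ between the 3p arms.

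Ordered by level, the 9 genes ran from Mir99a through Mir100, Mir99b, Mirlet7e, Mir125a, Mir125b-1, Mirlet7c-1 and Mirlet7a-2 to Mir125b-2. Between no 2 neighbours in this order did the values of the libraries overlap. By mean level the closest pair was Mirlet7c-1 and Mirlet7a-2, with a ratio of 1.30 in replicate 1 and 1.09 in replicate 2. In replicate 1 alone Mir100 and Mir99b were closer, with a ratio of 1.20, against 1.37 in replicate 2. The ends were 239-fold apart in replicate 1 and 257-fold in replicate 2. For the 4 lower genes other neighbours in level were Mir467e (287 ± 15 CPM) and Mir34a (285 ± 68 CPM) for Mir125b-1, and Mir101b (175 ± 17 CPM) and Mir185 (167 ± 18 CPM) for Mirlet7c-1. For Mirlet7a-2 they were Mir144 (148 ± 56 CPM) and Mir574 (141 ± 6 CPM), and for Mir125b-2 they were Mir3102 (81.6 ± 1.1 CPM) and Mir30c-2 (78.8 ± 6.1 CPM). All 8 overlapped with their member. Mir100 lay between Mir487b (6350 ± 649 CPM) and Mir30a (5126 ± 74 CPM), without overlap.

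The members with lower levels were those with longer shared stretches. The 5 members that share less than 20 nt had mean levels from 959 to 19683 CPM, and the 4 that share at least 20 nt had 79.5 to 286 CPM. Among the 313 detected genes, 78 (24.9%) shared at least 20 nt. Their median level was 70.3 CPM, against 190 CPM for the rest, with wide overlap. At a cut of 22 nt, 60 detected genes shared a stretch, with a median of 49.6 CPM and at most 3109 CPM. The median of the rest was then 192 CPM. Let-7 genes outside the clusters with such stretches differed in level. Mirlet7f-2, whose 5p arm is identical to that of Mirlet7f-1, had 2955 ± 100 CPM, while Mirlet7f-1 had 176 ± 3 CPM. Each of these shares 22 nt. Mirlet7c-2 and Mirlet7a-1, which share 26 nt, had 362 ± 42 and 206 ± 6 CPM. These are descriptions across genes, which are not replicates.

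**Figure D2:**
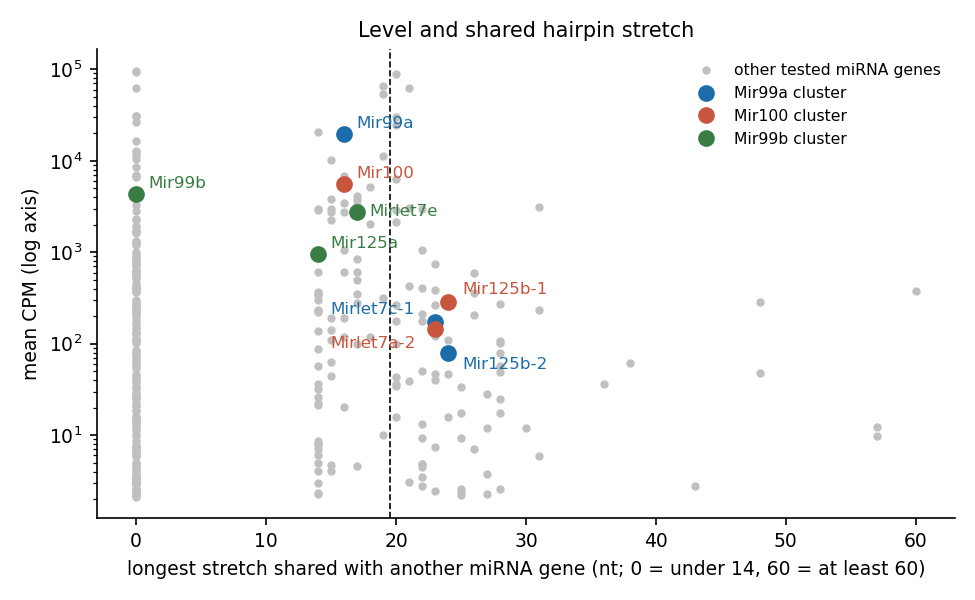
Mean CPM (log axis) against the longest hairpin stretch shared with another miRNA gene (nt), for the 332 genes tested, with the 9 members in the colours of their clusters. The dashed line separates stretches of at least 20 nt, and the 4 members to its right lie at 286 CPM or less.

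The clusters have the same layout at very different scales. In all 3 the order along the plus strand is Mir99/100 gene, let-7 gene, Mir125 gene. The Mir99b cluster spans 692 nt, with gaps of 94 and 367 nt. The Mir99a cluster spans 47408 nt, since Mirlet7c-1 follows after 656 nt and Mir125b-2 only after a further 46522 nt. The Mir100 cluster spans 50578 nt, with gaps of 5211 and 45114 nt.

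Each cluster lies within a gene on the same strand. The Mir99a cluster lies in introns of the long non-coding RNA Mir99ahg. Mir99a and Mirlet7c-1 also lie in an intron of the protein-coding Gm11146 on the opposite strand, and Mir125b-2 overlaps the first 4 nt of the unclassified transcript C130023A14Rik. The Mir100 cluster lies in introns of the non-coding 3110039I08Rik and Gm49317, and the Mir125b-1 hairpin lies within the exon of the sense intronic transcript Gm28119. On the opposite strand, the Mir100 hairpin lies whole in an exon of the lincRNA Gm48742. The Mir99b cluster lies in Spaca6, a protein-coding gene for a sperm protein, where Mir99b and Mirlet7e are intronic and 47 nt of the Mir125a hairpin fall in an annotated exon. The counts are of miRNA genes alone, so the levels of these hosts were not measured here.

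**Figure D3:**
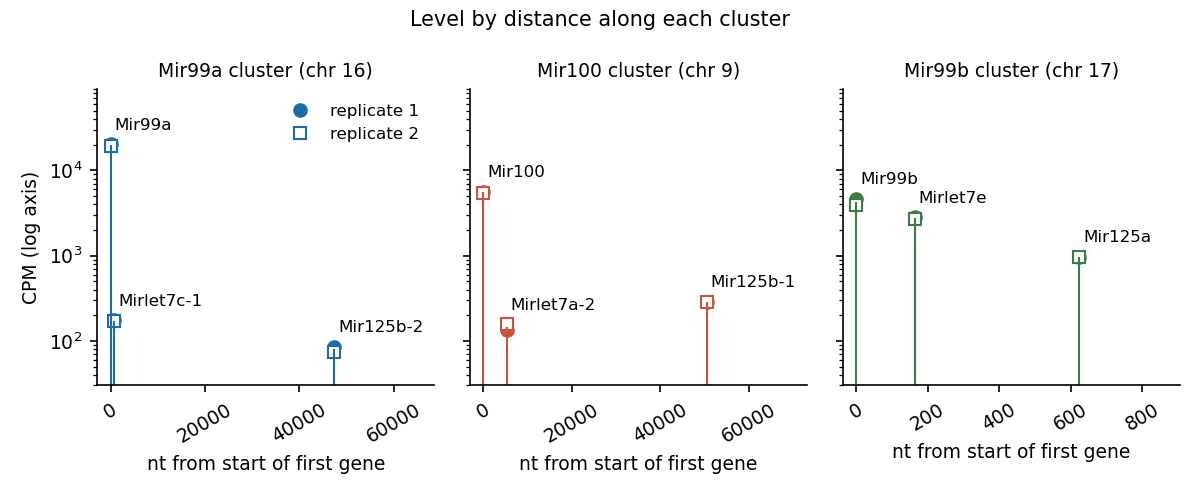
CPM (log axis) of each gene against its distance from the start of the first gene of its cluster (nt, linear, a separate scale in each panel), with replicate 1 as filled circles and replicate 2 as open squares. The first gene is the highest in each panel, and the panel of the Mir99b cluster spans 692 nt against 47408 and 50578 nt in the others.

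Within a cluster the counts were divided unequally, least so in the Mir99b cluster. There Mir99b held 55.4% of the counts of its cluster in replicate 1 and 51.9% in replicate 2, Mirlet7e 33.3% and 35.5%, and Mir125a 11.3% and 12.7%. None of these 3 genes shares 20 nt with another gene. In the Mir99a cluster, Mir99a held 98.7% in both libraries, Mirlet7c-1 0.864% ± 0.025 and Mir125b-2 0.398% ± 0.021. In the Mir100 cluster, Mir100 held 93.0% and 92.4%, Mir125b-1 4.82% ± 0.10 and Mirlet7a-2 2.45% ± 0.34. The let-7 and Mir125 genes of these 2 clusters are those with copies elsewhere.

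The clusters supplied very different parts of the counts of each seed family. These shares sum the whole hairpin counts of the genes with the seed, so reads of arms without it are included. The Mir99/100 seed is carried by these 3 genes alone, so the members hold all counts of that family, 2.95% ± 0.15 of those assigned. Mir99a gave 66.7% ± 0.6 of the family, Mir100 18.7% ± 0.4 and Mir99b 14.6% ± 1.0.

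The let-7 seed GAGGUAG belongs to 14 genes here, Mirlet7a-2 being placed among them by its name. Only 1.89% ± 0.04 of that family's counts came from the 3 members, 1.70% ± 0.05 of it from Mirlet7e. Mirlet7i, the leading gene of the family and on another chromosome, was 24.0 ± 0.5 times as high as Mirlet7e. In the order of the family Mirlet7e was 7th, Mirlet7c-1 11th and Mirlet7a-2 12th of 12 detected genes. The 5p arms of let-7a, let-7c and let-7f each occur in 2 genes, and reads that match both are missing from these shares and ranks. Mir1961 and Mir7k, which also carry the seed, had 0 counts in both libraries, which allows up to 0.750 CPM in replicate 1 and 0.593 CPM in replicate 2, from 3 counts each and for counting error alone.

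The counts of the Mir125 seed family were led by a gene outside the clusters. Mir351, of the X-linked Mir322 cluster, has the seed CCCUGAG and shares the first 8 bases with Mir125a, as the sequences show.
Mir351: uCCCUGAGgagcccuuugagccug
Mir125a: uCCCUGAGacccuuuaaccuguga
Mir351 was measured at 3945 and 3803 CPM, or 74.5% ± 0.5 of the counts assigned to genes with this seed. It was 4.04 ± 0.15 times as high as Mir125a. The 3 members held 25.5% ± 0.5, of which Mir125a gave 18.4% ± 0.6, Mir125b-1 5.51% ± 0.09 and Mir125b-2 1.53% ± 0.11. Reads of the miR-125b arm that matched both of its genes are not in these shares, while reads of their 3p arms, which have other seeds, are. The 5p arms of Mir351 and Mir125a occur in no other annotated hairpin, so the shares of the 4 genes do not count like reads. Mir6367 and Mir6394 carry the seed too and had 0 counts in both libraries, with the same limits.

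**Figure D4:**
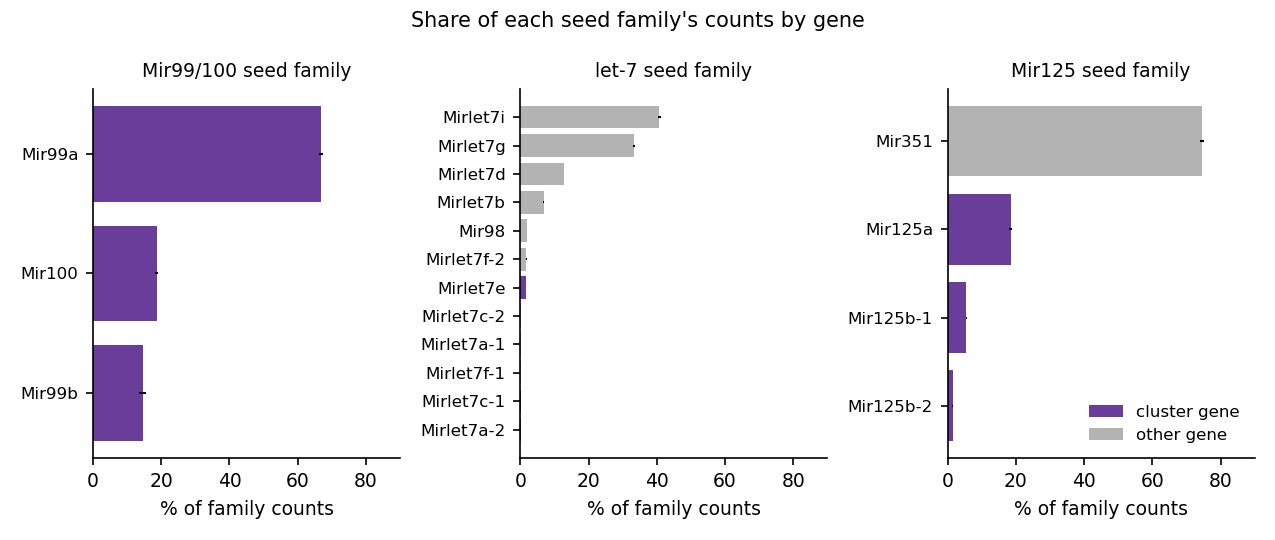
Share of the counts of each seed family (percent) by gene, mean of the 2 libraries with the SD as error bar, with cluster members in purple and other genes in grey; genes at 0 counts are left out. Members hold all of Mir99/100, and Mir351 holds 74.5% of the counts of the Mir125 seed family.

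The Mir10 genes of the Hox clusters are regarded as relatives of Mir99 and Mir100. Their seed, ACCCUGU, holds an extra U between ACCC and GU.
Mir10b: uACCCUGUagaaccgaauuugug
Mir100: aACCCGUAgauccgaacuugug
Mir10b had 10315 and 10165 CPM (10240 ± 106). This was 1.86 ± 0.03 times the level of Mir100, and Mir99a was 1.92 ± 0.06 times as high as Mir10b. Mir10a had 2610 and 3310 CPM, higher in replicate 2.

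Between the libraries the members' levels differed by at most 1.24-fold after scaling. For each gene a two-sided binomial test, in its exact form, compared the counts after TMM scaling of the totals. Its p was adjusted by Benjamini and Hochberg's method over the 332 genes whose mean was 10 counts or more, among them all 9 members. The test covers counting error alone and compares these 2 libraries, which the labels describe as numbered biological replicates. Of the 9 members 3 differed at an adjusted p under 0.05, while 39.5% of all genes tested did. Upward in replicate 2 were 2 members (27.1% of all genes) and downward 1 member (12.3%). The median absolute log2 ratio was 0.07 over the members and 0.16 over all genes tested. These medians are not at like depth, since the genes tested reach down to a mean of 10 counts. The lowest count of a member was 339.

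Mirlet7a-2 had the largest ratio of the 9. Its level in replicate 2 was 1.24-fold that in replicate 1, a log2 ratio of 0.31 (95% interval 0.15 to 0.47) with an adjusted p of 0.000683 in the exact binomial test. Of the 332 genes, 101 had a larger absolute log2 ratio. Mir125a was 1.07-fold higher there, a log2 ratio of 0.10 (0.03 to 0.16) with an exact binomial adjusted p of 0.00741. Mir99b was 1.12-fold lower there, a log2 ratio of -0.17 (-0.20 to -0.14) with an exact binomial adjusted p of 4.13e-29. The 3 genes of the Mir99b cluster thus gave ratios on both sides of 0, with Mirlet7e at log2 0.02 (interval -0.02 to 0.05). The other members that did not pass were Mir99a (log2 -0.01), Mir100 (0.01), Mir125b-1 (0.07), Mirlet7c-1 (0.05) and Mir125b-2 (-0.12, interval -0.34 to 0.10).

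**Figure D5:**
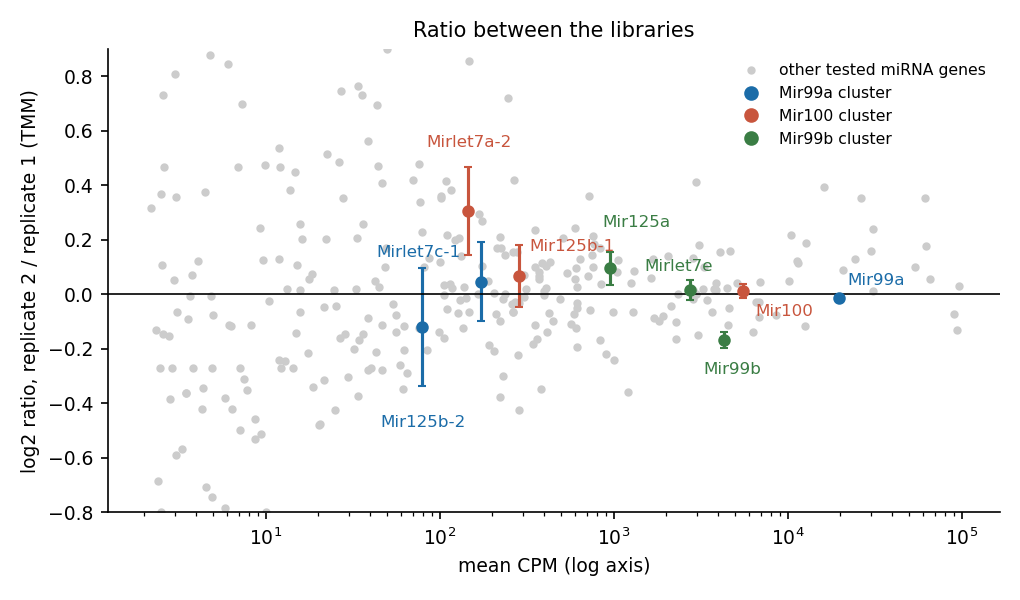
Log2 ratio of replicate 2 over replicate 1 with TMM scaling against mean CPM (log axis), for the 9 members with 95% exact intervals for counting error and for the other tested genes in grey, of which 28 lie beyond the axis. Members lie between log2 -0.17 and 0.31.

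These small ratios move with the scaling. With plain library totals 5 members passed, 1 higher (18.7% of all genes) and 4 lower (23.8%). Mirlet7a-2 and Mir99b passed in the same direction. Mir99a (log2 -0.08), Mir100 (-0.06) and Mirlet7e (-0.06) passed as lower, the last 2 with a changed sign, and Mir125a no longer passed (0.02). When a spread between the libraries was added through a negative binomial model in edgeR, 0 members passed and 0 had an unadjusted p under 0.05. That model called 6 of 332 genes (1.81%). Its dispersion was estimated from the same 2 libraries as if they were 1 group, a biological coefficient of variation of 0.14.

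In the lists of relatives, 5 of the 9 other let-7 genes tested were higher in replicate 2, against 27.1% of all genes. The log2 ratios of these 5 were small, from 0.06 (Mirlet7i) to 0.12 (Mirlet7b), and each had at least 13031 counts in both libraries. All genes tested reach down to a mean of 10 counts, so the list and its background are not at like depth. Lower was 1 of the 9, Mirlet7c-2 (log2 -0.16, exact binomial adjusted p = 0.00458), against 12.3% of all genes. Plain totals gave 3 higher and 3 lower, against 18.7% and 23.8% of all genes. Both Mir10 genes were higher, Mir10a by log2 0.41 and Mir10b by 0.05, and the sign of Mir10b changed with plain totals (-0.02). Mir351 did not pass (log2 0.02), but was called lower with plain totals.

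The libraries held 3999172 and 5062714 assigned counts, 41.3% and 39.3% of all their reads. The tissue label was checked against miRNA markers: 7 of 9 skeletal muscle genes were detected, summing to 88175 to 101176 CPM. Nearly all of this sum was Mir206, at a mean of 94022 CPM. Next highest was Mir499, at 247 CPM. Mir1a-2 had 102 CPM and Mir133a-1 5.84 CPM. They share 28 and 31 nt with another gene, so their reads can go uncounted. The 8 neural markers, 2 of them detected and led by Mir128-1, summed to 511 and 530 CPM. Among them Mir9-2, Mir124a-2 and Mir124a-3 were at 0, but they belong to multi-copy families whose reads can go uncounted. Of 7 leukocyte markers 6 were detected, summing to 1720 and 1685 CPM with Mir142b at 0, and the 5 epithelial markers, 3 of them detected, summed to at most 87.0 CPM. The endothelial marker Mir126a had 61854 ± 8585 CPM, and the smooth muscle markers together had 27142 ± 3635 CPM. Nearly all of the latter was Mir143, at a mean of 26527 CPM, against 615 CPM for Mir145a. The levels are thus those of a mixed tissue. The sum of both erythroid markers was 1680 CPM in replicate 1, against 4088 CPM in the other library, and both liver markers 113 and 279 CPM. Their part in the differences between the libraries was not tested, and fewer cells of a type cannot be told apart from less RNA per cell.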

How the data were processed

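MicroRNA-seq of 2 gastrocnemius libraries was analysed. The authors deposited raw read counts per miRNA gene for each library, without normalization. Per the file headers of the metadata deposited beside them, the assembly is mm10 and the annotation GENCODE M21. Aligner and counter: not given in the sources used here. The third column of each table, which counts reads in the sense of the genes, was used. The 4 summary rows (58.7% and 60.7% of the reads) were left out of totals, and reads with several genomic matches are in no gene, so multi-copy miRNAs can be undercounted. All 2202 identifiers matched M21.

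CPM use assigned counts (3999172 and 5062714). Intervals are exact (Clopper-Pearson, 95%), and as the tables hold no molecular identifiers, they cover counting error only. The libraries differed by more than counting noise (chi-square 85.7 per degree of freedom, 331 degrees of freedom), which 2 preparations from 1 animal could also show. They count as 2 samples because the labels give them separate animal and replicate numbers, though with 1 shared donor entry. Shared stretches of 14 to 60 nt were searched among M21 hairpins, and RefSeq arms were searched in them with 0 and 1 mismatches. No genome search was made. TMM factors (1.02 and 0.976) came from edgeR 4.0.16 in R 4.3.3, alternative size factors from DESeq2 1.42.0, and the binomial test from scipy 1.17.1 in Python 3.11.15 with numpy 2.4.6 and pandas 2.3.3. The test was tried on simulated counts with counting error alone, which lack the larger spread seen between these libraries.

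The clusters and lists were picked for description with earlier results of these data known, while membership of the clusters rests on gene names. Named genes are the 9 members, the genes directly above and below each in mean CPM, genes with a member's seed, and the lists of other let-7 genes, Mir10 genes, Mir351 and cell type markers. In the let-7 list 9 of 11 symbols matched. Mirlet7j and Mirlet7k did not, as M21 names these genes Mir7j and Mir7k. Mir7j, at 35.0 and 29.0 CPM, is thus not among the 9 other let-7 genes. Mirlet7f-1 and Mirlet7f-2 belong to that list. Alternatives were the unstranded column, other denominators, scalings, filters, count minimums and stretch lengths, CPM per hairpin length, each library alone and a negative binomial test.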

Additional observations from a re-analysis of the deposited data

Results flagged for a closer look

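Signals outside the main measurement were looked up for these genes. Reads with several genomic matches, which no gene count uses, made up 47.0% of replicate 1 and 48.0% of replicate 2, and how many of them came from Mirlet7c-1, Mirlet7a-2, Mir125b-1 or Mir125b-2 was not tested. On the strand opposite to Gm25927, 11228 reads lay in replicate 1 and 13680 in replicate 2, above the 3 counts that a count of 0 allows. These equal the sense counts of Mirlet7e, which lies within Gm25927 on that strand.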

How the results depend on the processing

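No paired analysis was possible because the series holds 1 group. All reads as the denominator lowered the shares of the Mir99a, Mir100 and Mir99b clusters and of all members to 0.804%, 0.240%, 0.324% and 1.37%, by construction. The unstranded column gave 2.43%, 0.725%, 0.643% and 3.80%, since its total is smaller and Mirlet7e is at 0. It also lowered the members' part of the let-7 seed family counts to 0.199%. Without genes whose 5p arm occurs in another hairpin, the members' part was 1.74% of the let-7 and 19.8% of the Mir125 family counts. Members that differed between the libraries numbered 5 with plain totals and 0 with the negative binomial test, which called 6 of all genes against 131 in the binomial test; the dispersion of the former holds the difference between the libraries. With plain totals the log2 ratios of Mir100 and Mirlet7e changed sign to -0.057 and -0.055, and those of Mirlet7c-1 (-0.02) and Mir125b-1 (-0.0040) fell below 0 without passing. With DESeq2 size factors Mir100 (-0.0019) and Mirlet7e (-0.00022) were also just below 0, without passing. Mir99a (adjusted p = 0.185 in the exact binomial test with TMM) passed with DESeq2 size factors (log2 -0.03), plain totals and the unstranded column. Mirlet7a-2 and Mir99b passed in the binomial test under every scaling tried. Detection of all members held at a minimum of 1 or 100 counts, and 4 members shared a stretch at 18, 20 or 22 nt. The arm search in the genome with a mismatch was not run.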
